A study of Mus musculus with 4 samples.

Results

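The interleukin-36 and interleukin-1 family genes described here are 10 of the 20611 genes in the deposited tables, chosen by symbol. They are the IL-36 agonists Il1f6, Il1f8 and Il1f9 (now Il36a, Il36b and Il36g), the IL-36 receptor antagonist Il1f5 (now Il36rn), the IL-1 agonists Il1a and Il1b, the IL-1 receptor antagonist Il1rn, the decoy receptor Il1r2, the alarmin Il33 and its receptor Il1rl1. All 10 were found, and all 10 passed the filter on low counts, which left 15068 genes for testing. No member passed the test threshold in any comparison after that filter, so the values below are levels and sizes of difference with their errors.

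RNA was sequenced from whole back skin of male BALB/c mice, 8 to 9 weeks old, and every mouse received 5% imiquimod cream at 47 mg per day from day 1 to day 5. Imiquimod activates Toll-like receptor 7 and gives a psoriasis-like inflammation of mouse skin. The IMQ group received the cream alone (1 library), the IMQ+VEH group also a lotion without active compound about 1 h later (2 libraries, replicates 1 and 2), and the IMQ+IDMF group a lotion with IDMF (1 library). IDMF is short for isosorbide di-(methyl fumarate), developed from the psoriasis drug dimethyl fumarate. Skin was taken on day 6. Every library thus comes from imiquimod-treated skin, and values are relative to the inflamed state. By the series' design text the replicates are biological and independent. Whether any library pools several animals is not stated.

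Cytokines of this family are made mostly by epithelial and myeloid cells and act through receptors that share the accessory chain IL1RAP and the adaptor MYD88, leading to NF-kB and MAP kinase signalling. IL-36 cytokines are products of activated keratinocytes, and loss of the IL-36 receptor antagonist causes generalized pustular psoriasis in humans. Each agonist branch has its own brake: IL36RN and IL1RN occupy their receptors without signalling, IL1R2 binds IL-1 without signalling, and a soluble form of IL1RL1 (ST2) captures IL-33.

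The 4 IL-36 genes and Il1rn lie in 1 cluster on chromosome 2, and Il1a and Il1b lie as neighbours farther along that chromosome. In the GENCODE M21 annotation of GRCm38, the cluster runs on the plus strand from Il1f8 (24153161 to 24160519) through Il1f9 (24186476 to 24193568), Il1f6 (24215418 to 24225702) and Il1f5 (24276954 to 24283426) to Il1rn (24336853 to 24351494). Il1a (129299610 to 129309972) and Il1b (129364570 to 129371139) are on the minus strand. Il1r2 (40074079 to 40125231) and Il1rl1 (40429570 to 40465415) are on chromosome 1, and Il33 (29925114 to 29960718) is on chromosome 19. Exons of Il1a overlap those of Gm14023, and exons of Il1b those of Il1bos, each on the other strand. The strand setting of the counting is not given, so reads of these partners cannot be told apart from those of Il1a and Il1b.

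Promoter sequences are shown for 3 IL-36 genes whose levels moved together across the libraries and for the IL-1 agonists, whose levels did not. They are the 250 bases before the transcription start in RefSeq (GRCm38.p6), 5′ to 3′ on the gene's strand, and the first of 2 listed starts was taken for Il1f5. Of the 10 members, 9 had an entry, and Il1f6 had none. The windows are chr2:24152922-24153171 (Il1f8, plus strand), chr2:24186226-24186475 (Il1f9, plus strand), chr2:24276704-24276953 (Il1f5, plus strand), chr2:129309973-129310222 (Il1a, minus strand) and chr2:129371140-129371389 (Il1b, minus strand). Capitals mark matches on either strand to the AP-1 motif TGANTCA, the C/EBP motif TTGCNNAA, the TATA box TATAAA, the core of the antioxidant response element TGACNNNGC and the NF-kB motif.
Il1f8: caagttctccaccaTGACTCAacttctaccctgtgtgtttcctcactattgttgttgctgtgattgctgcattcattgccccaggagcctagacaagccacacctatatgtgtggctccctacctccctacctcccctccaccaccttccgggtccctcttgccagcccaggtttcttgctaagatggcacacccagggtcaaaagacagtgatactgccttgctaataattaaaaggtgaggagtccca
Il1f9: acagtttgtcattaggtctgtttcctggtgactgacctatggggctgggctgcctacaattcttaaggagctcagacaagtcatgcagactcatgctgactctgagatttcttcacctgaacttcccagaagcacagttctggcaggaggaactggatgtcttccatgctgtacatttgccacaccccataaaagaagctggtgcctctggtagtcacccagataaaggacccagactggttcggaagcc
Il1f5: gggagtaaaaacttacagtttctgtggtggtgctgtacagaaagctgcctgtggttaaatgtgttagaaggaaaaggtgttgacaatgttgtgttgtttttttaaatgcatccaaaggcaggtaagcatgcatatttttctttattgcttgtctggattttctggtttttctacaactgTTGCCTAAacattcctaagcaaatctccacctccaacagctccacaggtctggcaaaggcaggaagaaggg
Il1a: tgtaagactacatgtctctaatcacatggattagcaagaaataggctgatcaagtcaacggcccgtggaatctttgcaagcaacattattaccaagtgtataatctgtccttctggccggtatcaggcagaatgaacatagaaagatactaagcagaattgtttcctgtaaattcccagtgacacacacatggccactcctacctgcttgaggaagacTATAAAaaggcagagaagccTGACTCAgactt
Il1b: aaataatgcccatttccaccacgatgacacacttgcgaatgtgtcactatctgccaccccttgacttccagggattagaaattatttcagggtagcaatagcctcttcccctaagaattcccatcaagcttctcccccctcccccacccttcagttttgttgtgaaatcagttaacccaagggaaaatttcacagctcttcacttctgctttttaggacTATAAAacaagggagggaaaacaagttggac
An AP-1 match began 236 bases before the start of Il1f8 and 12 bases before that of Il1a, and a C/EBP match 71 bases before that of Il1f5. A TATA box began 32 bases before the start of Il1a and 31 bases before that of Il1b. The Il1f9 window held none of the 5 motifs. Among 32851 RefSeq windows of this length, 6.75% held the AP-1 motif, 9.56% the C/EBP motif, 12.4% the TATA box, 10.2% the antioxidant core and 7.25% the NF-kB motif. A match is a run of letters and not a shown binding site.

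Total counts per library were 21167149 to 26639628. Within the IMQ+VEH pair, 9.99% of the tested genes differed 2-fold or more, so the pair was not uniform. All 10 keratinocyte markers had counts in every library, with a summed level between 46035 and 61141 CPM (counts scaled to library size). Levels of different genes are compared below in the authors' FPKM (fragments scaled to gene length and library size), and differences between libraries in log2 fold changes from the counts, each with its standard error (SE).

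The IL-36 genes were the most abundant members, and their agonists and antagonist kept nearly the same proportion in all 4 libraries. Il1f6, an agonist released by keratinocytes, had 376 FPKM in IMQ, 250.4 and 292 in IMQ+VEH replicates 1 and 2 (271 ± 29.1, SD, n = 2) and 209 in IMQ+IDMF. Il1f8 had 228 FPKM in IMQ, 174 and 174 in IMQ+VEH (174 ± 0.252, SD, n = 2) and 129 in IMQ+IDMF. Il1f9, the agonist most often followed in psoriatic skin, had 207 FPKM in IMQ, 129 and 171 in IMQ+VEH (150.1 ± 30.2, SD, n = 2) and 123 in IMQ+IDMF. IMQ was the highest and IMQ+IDMF the lowest library for each of the 3 agonists on this scale. The antagonist Il1f5, which blocks the same receptor, had 529 FPKM in IMQ, 387 and 450.5 in IMQ+VEH (419 ± 44.7, SD, n = 2) and 317 in IMQ+IDMF, the same order of groups as its agonists. By FPKM, Il1f5 ranked between 169 and 258 among the 20611 genes of a library and Il1f6 between 227 and 344.

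**Figure D1:**
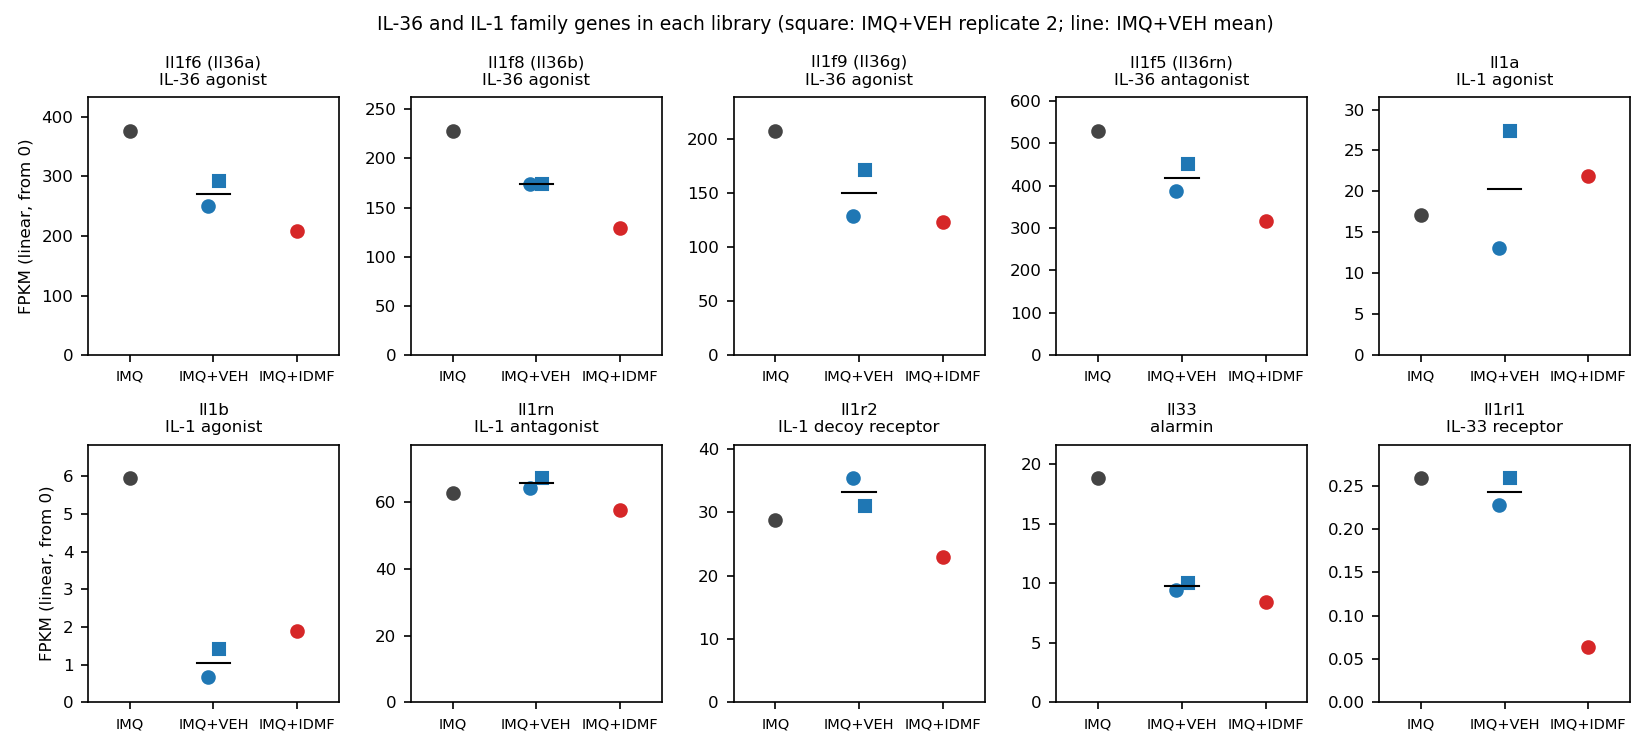
FPKM (vertical axes, linear from 0, each panel with its own range) of the 10 genes in IMQ, IMQ+VEH (circle replicate 1, square replicate 2, line their mean) and IMQ+IDMF. The 4 IL-36 genes and Il33 are highest in IMQ, Il1b has 5.95 FPKM in IMQ and 0.687 in IMQ+VEH replicate 1, and Il1rl1 is lowest in IMQ+IDMF at 0.0637.

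By design IMQ+VEH and IMQ differ in the lotion without compound. For IMQ+VEH against IMQ the log2 fold changes were -0.57 (SE 0.32) for Il1f6, -0.49 (SE 0.27) for Il1f8, -0.55 (SE 0.35) for Il1f9 and -0.43 (SE 0.44) for Il1f5. Both IMQ+VEH libraries lay below IMQ for all 4 genes, and edgeR's adjusted p was 0.698 to 0.942. By design IMQ+IDMF and IMQ+VEH differ in the compound in the lotion. For IMQ+IDMF against IMQ+VEH the log2 fold changes were -0.35 (SE 0.34) for Il1f6, -0.40 (SE 0.28) for Il1f8, -0.26 (SE 0.36) for Il1f9 and -0.37 (SE 0.45) for Il1f5, and edgeR's adjusted p was 1 for all 4. IMQ+IDMF was below both IMQ+VEH libraries for Il1f6, Il1f8 and Il1f5. For Il1f9 it was level with replicate 1 (a log2 CPM difference of 0.03) and below replicate 2 (-0.51). Without replicate 1 or replicate 2 this second difference was -0.51 or -0.17 for Il1f6, -0.54 or -0.20 for Il1f5 and -0.51 or 0.03 for Il1f9, and the first was -0.31 or -0.85 for Il1f9 and -0.27 or -0.61 for Il1f5. Both comparisons use the same IMQ+VEH libraries and 1 library of the other group, so treatment cannot be told apart from differences between skin samples. Between the single IMQ+IDMF and IMQ libraries, which allow no test, the log2 CPM difference was -0.92 for Il1f6, -0.89 for Il1f8, -0.82 for Il1f9 and -0.81 for Il1f5, each short of 2-fold.

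Within a library, a ratio of 2 genes does not depend on library size. The summed FPKM of the 3 agonists was 811 in IMQ, 553 and 637 in IMQ+VEH and 461 in IMQ+IDMF. Divided by Il1f5, it gave 1.53 in IMQ, 1.43 and 1.41 in IMQ+VEH and 1.46 in IMQ+IDMF. On the log2 scale IMQ+IDMF differed from the IMQ+VEH mean by 0.03, where the pair differed by -0.02, although the agonist sum itself spanned 461 to 811 FPKM. The make-up of the agonists was also alike: Il1f6 made up 45.3% to 46.4% of their summed FPKM, Il1f8 27.3% to 31.4% and Il1f9 23.3% to 26.9%. As root mean square differences of centred log2 CPM over the 4 libraries, the 4 IL-36 genes lay 0.06 to 0.16 from each other. Il1rn and Il1r2 lay 0.16 apart, and the nearest gene that is not a member lay 0.02 to 0.03 from each IL-36 gene. Such closeness was thus not particular to the IL-36 genes. Il1f10, which codes for IL-38 and lies between Il1f5 and Il1rn, had 46, 54, 24 and 25 counts in IMQ, IMQ+VEH replicates 1 and 2 and IMQ+IDMF.

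**Figure D2:**
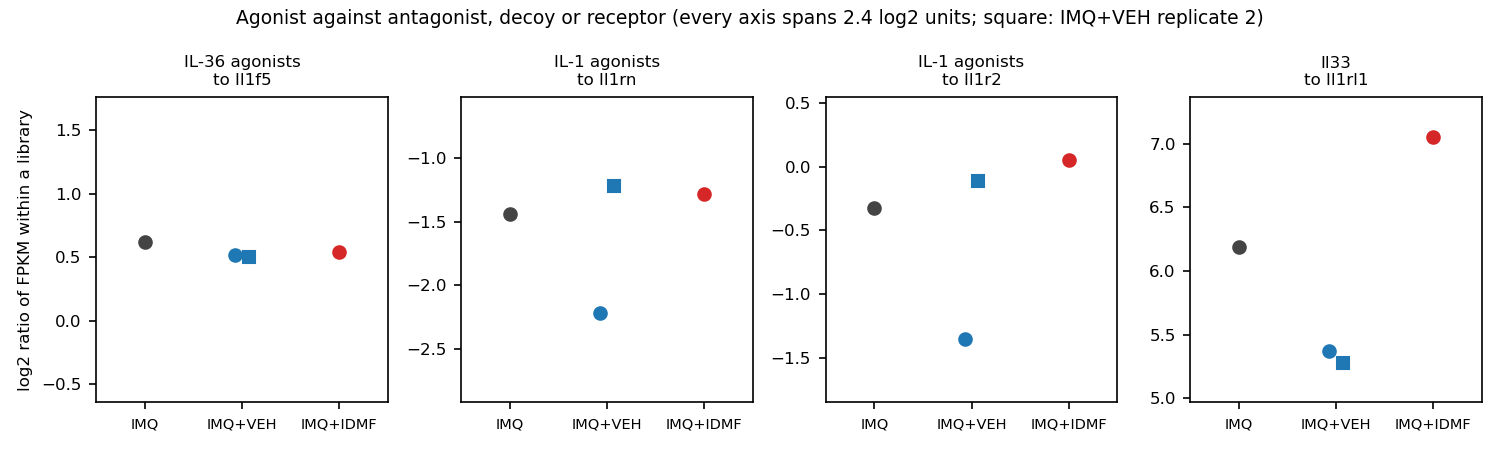
Log2 ratio of summed FPKM of agonists to FPKM of an antagonist, decoy or receptor (vertical axes, each 2.4 log2 units) within each library of the 3 groups on the horizontal axis. The IL-36 ratio stays between 0.50 and 0.62, the 2 IL-1 ratios are lowest in IMQ+VEH replicate 1, and the ratio of Il33 to Il1rl1 is highest in IMQ+IDMF at 7.05.

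In these libraries the IL-1 agonists had other patterns than the IL-36 genes and than each other, which was not tested. Il1b, the agonist that inflammasome caspases activate, had 245 counts in IMQ (95% exact Poisson interval 215 to 278), 28 (18.6 to 40.5) and 46 (33.7 to 61.4) in IMQ+VEH, and 66 (51.0 to 84.0) in IMQ+IDMF, intervals that cover counting error only. That is 5.95 FPKM in IMQ, 0.687 and 1.42 in IMQ+VEH (1.05 ± 0.519, SD, n = 2) and 1.90 in IMQ+IDMF. IMQ stood above the 3 lotion libraries, and IMQ+IDMF above both IMQ+VEH libraries. The log2 fold change of IMQ+VEH against IMQ was -2.59 (SE 0.59, unadjusted p = 0.000829, edgeR adjusted p = 0.0919), lower in 2 of 2 libraries, which missed the threshold. Over the alternatives edgeR's and DESeq2's adjusted p was 0.000378, with no filter on low counts, to 0.194. Without replicate 2 it was -3.27, with no test. For IMQ+IDMF against IMQ+VEH it was 0.88 (SE 0.62, adjusted p = 1), with 0.39 without replicate 1 and 1.56 without replicate 2, as the pair itself differed by 1.11 in log2 CPM.

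Il1a, an agonist that epithelial cells keep ready and release on damage, had 17.2 FPKM in IMQ, 13.1 and 27.4 in IMQ+VEH (20.3 ± 10.1, SD, n = 2) and 21.8 in IMQ+IDMF. The IMQ+VEH pair held the highest and the lowest library, and the other groups lay between them. The log2 fold changes were 0.16 (SE 0.41) for IMQ+VEH against IMQ and 0.11 (SE 0.40) for IMQ+IDMF against IMQ+VEH, and the second became -0.39 without replicate 1 and 0.87 without replicate 2. Il1a exceeded Il1b 2.88-fold in FPKM in IMQ, 19.1-fold and 19.3-fold in IMQ+VEH and 11.5-fold in IMQ+IDMF. The share of Il1b in the FPKM of both agonists was thus 25.7% in IMQ, 8.01% in IMQ+IDMF and 4.98% and 4.94% in the pair. This share was alike in the 2 IMQ+VEH libraries although Il1a and Il1b each differed between them. It rests there on 28 and 46 counts of Il1b (95% exact Poisson intervals 18.6 to 40.5 and 33.7 to 61.4), so counting error alone could move it.

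The brakes of IL-1 varied less over the 4 libraries than its agonists. Il1rn, the receptor antagonist, had 62.8 FPKM in IMQ, 64.5 and 67.3 in IMQ+VEH (65.9 ± 1.97, SD, n = 2) and 57.8 in IMQ+IDMF, a spread of 1.16-fold from lowest to highest, the smallest of the 10 members. Its log2 fold changes were -0.03 (SE 0.30) for IMQ+VEH against IMQ and -0.16 (SE 0.30) for IMQ+IDMF against IMQ+VEH, the first of which changes sign under other scalings, while the second was -0.25 without replicate 1 and -0.06 without replicate 2. Counts per gene do not separate the secreted from the intracellular forms of Il1rn. Il1r2, the decoy receptor, had 28.9 FPKM in IMQ, 35.4 and 31.0 in IMQ+VEH (33.2 ± 3.09, SD, n = 2) and 22.9 in IMQ+IDMF, which was the lowest library. Its log2 fold change was 0.10 (SE 0.27) for IMQ+VEH against IMQ and -0.49 (SE 0.27, unadjusted p = 0.0939, edgeR adjusted p = 1) for IMQ+IDMF against IMQ+VEH, with log2 CPM differences of -0.52 and -0.46 to the single libraries.

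The ratio of summed Il1a and Il1b to Il1rn was 0.368 in IMQ, 0.214 and 0.428 in IMQ+VEH and 0.411 in IMQ+IDMF, so the antagonist exceeded the agonists in every library. IMQ+IDMF differed from the IMQ+VEH mean by 0.44 on the log2 scale, less than the pair's own difference of 1.00, with 0.94 to replicate 1 and -0.06 to replicate 2. The ratio to Il1r2 was 0.801, 0.390, 0.928 and 1.04 in the same order, with IMQ+IDMF the highest library. Its difference was 0.78 on the log2 scale (1.41 to replicate 1 and 0.16 to replicate 2), against 1.25 within the pair. Both differences to the IMQ+VEH mean were smaller than the difference within the pair, although for Il1r2 IMQ+IDMF lay outside the range of the pair.

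Il33, an alarmin stored in the nuclei of epithelial and stromal cells, had 18.8 FPKM in IMQ, 9.46 and 10.03 in IMQ+VEH (9.74 ± 0.406, SD, n = 2) and 8.46 in IMQ+IDMF. The 3 lotion libraries lay close together and all below IMQ. The log2 fold change of IMQ+VEH against IMQ was -1.05 (SE 0.27, unadjusted p = 0.00214, edgeR adjusted p = 0.150), lower in 2 of 2 libraries, which missed the threshold. Its adjusted p was 0.0196 with no filter on low counts and up to 0.229 over the other alternatives. For IMQ+IDMF against IMQ+VEH it was -0.17 (SE 0.28, adjusted p = 1; -0.28 without replicate 1 and -0.06 without replicate 2). Il1rl1, which codes for both the IL-33 receptor and its soluble decoy form, had 43 counts in IMQ (95% exact Poisson interval 31.1 to 57.9), 39 (27.7 to 53.3) and 32 (21.9 to 45.2) in IMQ+VEH and 10 (4.80 to 18.4) in IMQ+IDMF. In FPKM this was 0.259, 0.228, 0.259 and 0.0637, the lowest level of the 10 members, and the 2 forms were not told apart. IMQ+IDMF was the lowest library, and its counting interval lay below those of the others. These intervals are of counts not scaled to depth and cover counting error only, not differences between skin samples. The log2 fold change was -0.20 (SE 0.79) for IMQ+VEH against IMQ and -1.71 (SE 0.92, unadjusted p = 0.0877, edgeR adjusted p = 1) for IMQ+IDMF against IMQ+VEH. The ratio of Il33 to Il1rl1 was 72.7 in IMQ, 41.5 and 38.8 in IMQ+VEH and 133 in IMQ+IDMF, 1.73 above the IMQ+VEH mean on the log2 scale where the pair differed by -0.10. It rests on the 10 counts of Il1rl1 in 1 library.

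**Figure D3:**
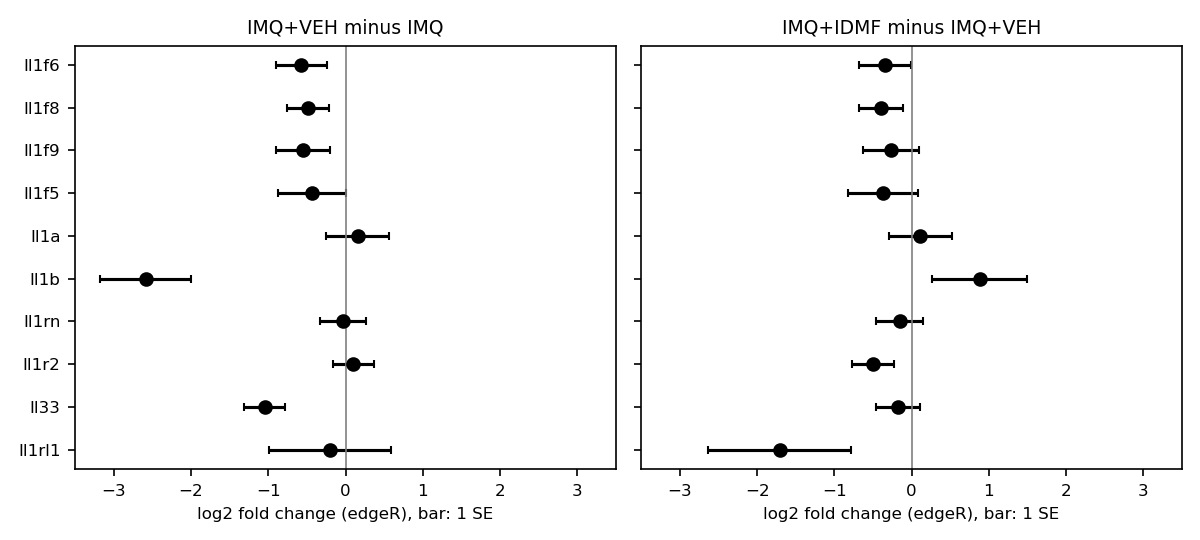
Log2 fold changes from the edgeR fit (horizontal axis, bars 1 SE) of the 10 genes for IMQ+VEH against IMQ (left) and IMQ+IDMF against IMQ+VEH (right), which share the IMQ+VEH libraries. Il1b (-2.59) and Il33 (-1.05) lie farthest below 0 on the left relative to their errors, and Il1rl1 (-1.71) has the widest bar on the right.

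Over the whole table edgeR called 100 genes for IMQ+VEH against IMQ (0.664%; 0.338% higher and 0.325% lower), 0 of them members. At an unadjusted p under 0.05 it was 2 of 10 members, Il1b and Il33, both lower, where 8.81% of all tested genes passed, 6.26% higher and 2.55% lower. For IMQ+IDMF against IMQ+VEH edgeR and DESeq2 each called 0 genes (0%). At an unadjusted p under 0.05 edgeR had 306 genes (2.03%, with 1.55% lower) and 0 members. With IMQ and IMQ+VEH taken as 1 group of 3, IMQ+IDMF again differed for 0 genes (0%) by edgeR and for 1 gene by DESeq2. At an unadjusted p under 0.05 the edgeR fit had 168 genes (1.11%, with 0.763% lower) and 1 member, Il1rl1 (log2 fold change -1.78, SE 0.72, unadjusted p = 0.0463).

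By position alone, 7 of the 10 members lay below both IMQ+VEH libraries in IMQ+IDMF, where 27.5% of all tested genes did: Il1f6, Il1f8, Il1f5, Il1rn, Il1r2, Il33 and Il1rl1. These 7 also lay below IMQ, so that IMQ+IDMF was their lowest library, as for 19.5% of all tested genes. Il1b alone lay above both IMQ+VEH libraries, where 27.7% of genes did. The brakes Il1f5, Il1rn and Il1r2 and the receptor gene Il1rl1 were all below both, and so were the agonists Il1f6, Il1f8 and Il33. The agonists Il1f9 and Il1a lay between the 2 libraries, so the 3 members not below both in log2 CPM were agonists. Some of these positions rest on small log2 CPM differences to replicate 1: 0.03 for Il1f9, -0.06 for Il1rn and -0.07 for Il33. With total counts as library sizes or in deposited FPKM, Il1f9 lay below both as well. Both IMQ+VEH libraries lay below IMQ for 7 members, where 35% of genes did: the 4 IL-36 genes, Il1b, Il33 and Il1rl1. The same 7 lay below IMQ in all 3 lotion libraries (30.1% of genes), and Il1r2 alone lay above IMQ in both IMQ+VEH libraries (33.6%). In IMQ+IDMF, 3 members were at least 2-fold lower than in IMQ (4.51% of genes), namely Il1b, Il33 and Il1rl1, and 0 were at least 2-fold higher (6.78%). The 10 genes were chosen with earlier results of these data known, so these counts are a description.

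The receptors of IL-36 and IL-1 were present in all libraries, and 0 of the 9 tested genes of the list of other ligands, receptors and binding proteins passed the threshold in either comparison. Il1rl2, the IL-36 receptor, had 20.8 FPKM in IMQ, 20.3 and 16.3 in IMQ+VEH and 21.1 in IMQ+IDMF, well below its ligands. Il1rap, the shared accessory chain, had 9.01, 9.00, 8.92 and 10.6 FPKM in the same order, and Il1r1, the signalling IL-1 receptor, 4.33, 6.72, 4.25 and 4.35. Il1rl2 lay above both IMQ+VEH libraries in IMQ+IDMF and about level with IMQ (52.2 CPM in IMQ and 51.0 in IMQ+IDMF). Its log2 fold change to IMQ+VEH was 0.25 (SE 0.27; 0.34 without replicate 1 and 0.16 without replicate 2), and values for Il1rap, Il1r1 and the inhibitory receptor Sigirr were 0.27 (SE 0.26), -0.29 (SE 0.32) and 0.54 (SE 0.48). Il18, an inflammasome-dependent cytokine that keratinocytes also store, had 120 FPKM in IMQ, 98.3 and 126 in IMQ+VEH and 88.8 in IMQ+IDMF (-0.31, SE 0.29; -0.53 without replicate 1 and -0.05 without replicate 2). Its binding protein Il18bp (-0.18, SE 0.56), its receptor chain Il18r1 (-0.59, SE 0.52) and Il1f10 (-0.48, SE 0.81) were not called either. The median log2 fold change of the list to IMQ+VEH was -0.29, where it was -0.01 over all tested genes.

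Of the inflammasome and processing proteases, which activate IL-1, IL-18, IL-33 and IL-36 precursors, 0 of 15 tested genes passed in either comparison. Casp1, the IL-1 beta converting enzyme, had 1313, 1332, 1077 and 1191 counts in IMQ, IMQ+VEH replicates 1 and 2 and IMQ+IDMF, without the excess of IMQ that Il1b had. The inflammasome sensor Nlrp3 had 50, 38, 15 and 18 counts and the adaptor Pycard 4230, 3145, 3198 and 2717. Of the proteases, Ctss, a cathepsin that cleaves IL-36 gamma, had 1530, 2270, 1198 and 764 counts, with a log2 fold change to IMQ+VEH of -1.03 (SE 0.30, adjusted p = 1). The mast cell chymase Cma1 (-0.95, SE 0.45) and the caspase Casp4 (-0.56, SE 0.31) also lay below both IMQ+VEH libraries. Ctss, Cma1 and Casp4 were named for the size of this difference. Casp4 was about level with IMQ (19.9 CPM in IMQ and 21.3 in IMQ+IDMF). Of the 15 tested genes, 5 lay below both IMQ+VEH libraries in IMQ+IDMF and 4 above both (27.5% and 27.7% of all tested genes). Among 18 receptor signalling genes 0 passed, and their median log2 fold changes were -0.15 for IMQ+VEH against IMQ and 0.05 for IMQ+IDMF against IMQ+VEH. Irak2, a kinase of the MYD88 complex, had -0.47 (SE 0.28) in the second comparison, while Myd88 had -0.12 (SE 0.27), Ikbkg 0.29 (SE 0.26), Nfkbia 0.15 (SE 0.27) and Nfkbiz, the atypical inhibitor needed for many IL-36 responses, 0.06 (SE 0.26).

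Among genes known to be induced by IL-1 or IL-36, 2 of 20 tested genes fell in IMQ+VEH against IMQ (0.325% of all tested genes). In that comparison 0 rose (0.338%), and 0 passed in IMQ+IDMF against IMQ+VEH (0%). At an unadjusted p under 0.05 by edgeR, 4 of the 20 fell and 3 rose in IMQ+VEH against IMQ (2.55% and 6.26% of all tested genes). Saa3, an acute phase protein, had 1594 counts in IMQ, 390 and 218 in IMQ+VEH and 228 in IMQ+IDMF (log2 fold change -2.35, SE 0.30, edgeR adjusted p = 0.00328). Cxcl2, a neutrophil chemokine, had 87 counts in IMQ, 0 and 0 in IMQ+VEH and 6 in IMQ+IDMF (edgeR adjusted p = 0.0189). With a floor of 3 counts in place of 0, IMQ was 32.1-fold and 23.4-fold higher in CPM than IMQ+VEH replicates 1 and 2. These folds leave out counting error, with 95% exact Poisson intervals of 69.7 to 107 for 87 counts and 0 to 3.69 for 0. The list's medians were 0.14 and -0.12, the first unchanged with Cxcl2 set to the 23.4-fold value. In IMQ+IDMF against IMQ+VEH the alarmin S100a9 had -1.06 (SE 0.67; -0.41 without replicate 1 and -1.52 without replicate 2). The chemokine Cxcl1 had 0.58 (SE 0.64; 0.92 without replicate 1 and 0.31 without replicate 2), and Ccl2 had -0.54 (SE 0.63). Of 8 tested genes of IL-33-responsive type 2 immunity, 1 fell and 1 rose in IMQ+VEH against IMQ (0.325% and 0.338% of all tested genes). The arginase gene Arg1 had 2475 counts in IMQ, 376 and 358 in IMQ+VEH and 387 in IMQ+IDMF (-2.66, SE 0.28, adjusted p = 0.000898). The macrophage product Retnla had 250 counts in IMQ, 1977 and 1011 in IMQ+VEH and 707 in IMQ+IDMF (2.60, SE 0.35, adjusted p = 0.00408). Beside it, 8 adipocyte markers had a summed level of 804 CPM in IMQ, 3769 and 2567 in IMQ+VEH and 2778 in IMQ+IDMF. Of the 8, 4 rose in IMQ+VEH against IMQ (0.338% of all tested genes). The 8 skeletal muscle markers had 12214, 23752, 16384 and 21642 CPM, and the part of either list in the Retnla value was not tested. Against IMQ+VEH, IMQ+IDMF gave -0.92 (SE 0.31) for Retnla, -0.50 (SE 0.59) for the chemokine Ccl24 and -0.16 (SE 0.34) for Rora, and 0 genes of the list passed. The 3 genes of the list that did not pass the filter were the type 2 cytokines: Il5 had 0 counts in all 4 libraries, Il13 at most 1 and Il4 at most 6.

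**Figure D4:**
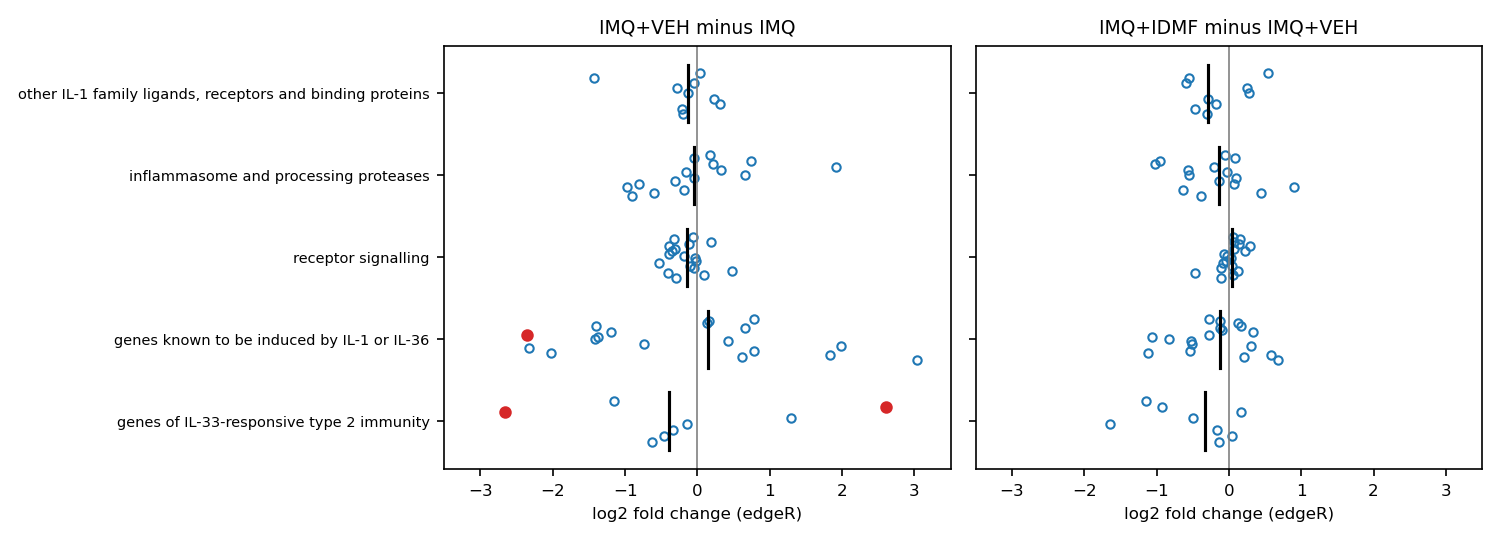
Log2 fold changes (horizontal axis) of single genes in the 5 lists of pathway genes for IMQ+VEH against IMQ (left) and IMQ+IDMF against IMQ+VEH (right), with filled points past an adjusted p of 0.05 and bars at list medians. Cxcl2, also past the threshold on the left but with 0 counts in both IMQ+VEH libraries, is left off; Saa3, Arg1 and Retnla are the filled points, and the right side has none.

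In whole skin, fewer cells of a type and less RNA per cell cannot be told apart, so marker lists are given beside the members. Beside Il1b, the summed level of 11 neutrophil markers was 83.9 CPM in IMQ, 66.0 and 82.6 in IMQ+VEH and 70.3 in IMQ+IDMF, of which Cxcr2 made up 62.4, 46.1, 64.6 and 58.4 CPM. Trem1, with 28, 2, 2 and 3 counts, and Fpr2, with 95, 59, 28 and 13, were highest in IMQ. Csf3r, with 157, 229, 91 and 93 counts, and Camp, with 1, 7, 16 and 6, were not. These examples were chosen after their values were seen. Both IMQ+VEH libraries lay below IMQ for 4 of 8 tested neutrophil markers and above it for 1 (35% and 33.6% of all tested genes). The 12 monocyte and macrophage markers had 786, 1012, 618 and 458 CPM, lowest in IMQ+IDMF. In IMQ+IDMF, 10 of the 12 lay below both IMQ+VEH libraries (27.5% of all tested genes). Their median log2 fold change to IMQ+VEH was -0.97, beside -0.92 for Retnla and -1.03 for Ctss, and their part in those 2 values was not tested. Of the neutrophil markers 2, 1, 0 and 3 were at 0 counts in the 4 libraries, and Ly6g was not in the table. The 10 hair follicle markers had 112, 22.8, 28.0 and 62.1 CPM, the same order of libraries as Il1b, with 0, 1, 2 and 0 markers at 0. They also contained 4 of the genes that fell in IMQ+VEH against IMQ (0.325% of all tested genes). The part of the neutrophil, macrophage and hair follicle markers in the Il1b values was not tested.

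The 9 fibroblast markers had 1810 CPM in IMQ, 6652 and 3487 in IMQ+VEH and 2317 in IMQ+IDMF, and the 8 endothelial markers had 124, 257, 128 and 181 CPM. Both lists were thus lowest in IMQ, where Il33 was highest. The keratinocyte list, given below, was highest in IMQ like Il33, at 61141 CPM. The part of these lists in the Il33 values was not tested. For Il1rl1, whose protein marks mast cells and type 2 lymphoid cells, the 8 mast cell markers had 25.7, 35.4, 24.1 and 19.6 CPM, and 10 markers of T, NK and innate lymphoid cells had 19.3, 17.0, 14.4 and 11.9 CPM. IMQ+IDMF was lowest for both sums. Below both IMQ+VEH libraries lay 4 of 7 tested mast cell markers and 4 of 8 tested lymphoid markers (27.5% of all tested genes). Above both lay 1 mast cell marker, Ms4a2, and 2 lymphoid markers, Cd4 and Cd8a (27.7% of all tested genes). Cd3g made up 6.82, 3.74, 3.02 and 1.30 CPM of the lymphoid sums. No mast cell marker was at 0. The part of both lists in the Il1rl1 value was not tested. Keratinocyte markers, beside the IL-36 genes, had 61141, 46035, 56865 and 52155 CPM, sums that Krt1 and Krt10 dominate. Both IMQ+VEH libraries lay below IMQ for 8 of 10 markers (35% of all tested genes), as for the IL-36 genes. Examples chosen after their values were seen are Krt14 (log2 fold change -1.10, SE 0.73), Dsc3 (-0.64, SE 0.40) and Krt15 (-0.59, SE 0.35). In IMQ+IDMF, 6 of 10 lay above both IMQ+VEH libraries (27.7% of all tested genes), and their part in the IL-36 values was not tested.

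**Figure D5:**
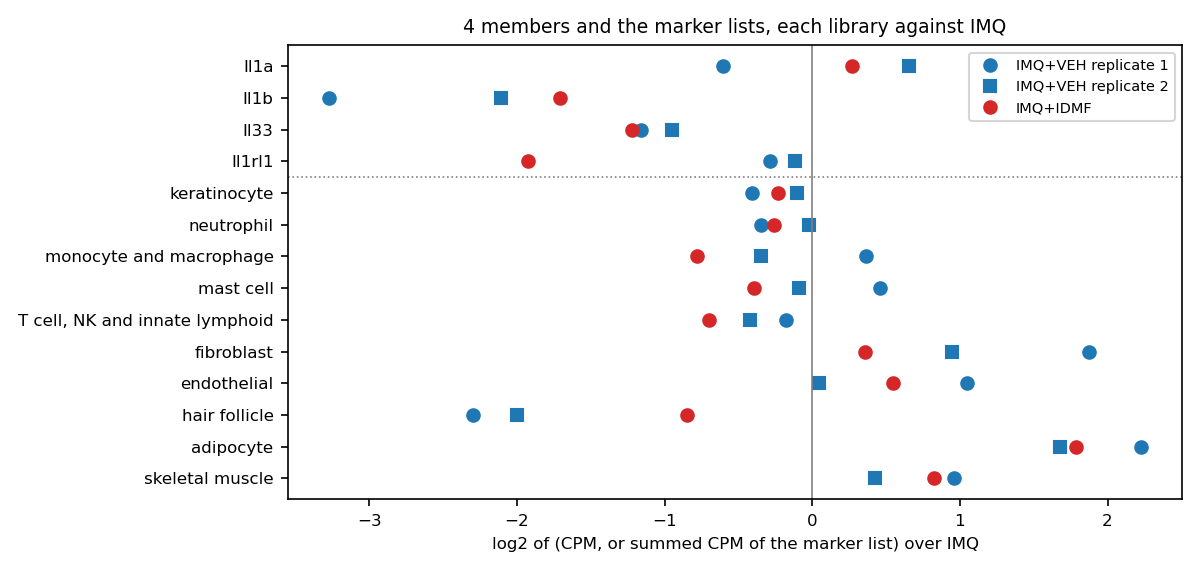
Log2 ratio to IMQ (horizontal axis) of the CPM of 4 members (above the dotted line) and of the summed CPM of 10 marker lists (below it), for IMQ+VEH replicates 1 and 2 and IMQ+IDMF. Il1b lies left of 0 in all 3 libraries with the hair follicle list, and Il1rl1 is far left in IMQ+IDMF alone. Il33 lies left of 0, as do keratinocyte markers, while fibroblast markers lie right of it.

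Genes with the most similar pattern over the 4 libraries were looked up for each member among 12378 genes, by the root mean square difference of centred log2 CPM. With 4 libraries this is a description of these samples. Nearest to Il1f6 were Jakmip2, Dnase1l2 and Blmh (0.03 to 0.05), to Il1f8 Camk1d, Rab8b and Foxn1 (0.03 to 0.04), to Il1f9 Mcc, Rbp2 and Tmprss13 (0.02 to 0.03) and to Il1f5 Hsbp1l1, Ilvbl and Blmh (0.02 to 0.04). Blmh, a peptidase of the upper epidermis, was thus close to an IL-36 agonist and to the antagonist. Nearest to Il1a were Sfn, Hgh1 and Cyp3a13 (0.06 to 0.09), to Il33 Polq, Syt8 and Fabp5 (0.06 for each), to Il1rn Klf6, Pdia3 and Snx21 (0.01 for each) and to Il1r2 Angptl6, Zfp763 and Isg20 (0.02 to 0.04). The low-count members had no gene as close: for Il1b the nearest were Tyrp1, Serpina9 and Fetub (0.17 to 0.24), and for Il1rl1 Usp27x, Ddias and Kcnip3 (0.20 to 0.23).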

How the data were processed

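Groups were taken from the sample labels. For each of the 4 libraries the authors deposited a raw count and an FPKM value per gene symbol, per the file headers. Sequencing was single-end with 50 cycles, per the labels' protocols. The submitters' processing notes list HTSeq, TopHat2 and Cufflinks, with GRCm38 and mm10 as builds. Software versions, gene models, strandedness and the treatment of multiply mapped reads were not stated.

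Counts were tested by the two-sided quasi-likelihood F test of edgeR 4.0.16 (R 4.3.3), after filterByExpr and with TMM scaling and 1 mean per group. P-values were adjusted by Benjamini-Hochberg over 15068 genes, with a threshold of 0.05. The spread came from the IMQ+VEH pair alone (1 residual and 11.2 prior degrees of freedom), and the single libraries were assumed to vary like it. The pair differed beyond sampling noise (chi-square per degree of freedom of 66.0). The SE is the fold change over the square root of F. Log2 CPM used a prior count of 2. Ratios used FPKM as deposited. The fit was tested on simulated data with a common spread for all genes and changes larger than most reported here. That does not show its power or its false calls at the reported sizes.

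Members and lists were chosen with earlier results of these data known. All 10 members and 12 further genes were named whatever their values. From each pathway list, genes past the threshold and up to 3 genes with IMQ+IDMF farthest beyond both IMQ+VEH libraries were added. Alternatives were DESeq2 1.42.0, other scalings, filters and units, a robust fit, and leaving out libraries.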

Additional observations from a re-analysis of the deposited data

How the results depend on the processing

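Of 297 alternative values of member fold changes, 282 kept their direction and their side of the threshold or, where there was no test, moved by at most 1 SE. Genes called for IMQ+IDMF against IMQ+VEH were 16 with no filter on low counts and 0 under the other alternatives. For IMQ+VEH against IMQ the 100 calls became 202 by DESeq2 and 424 with no filter, and for IMQ+IDMF against the 3 other libraries the 0 calls became 1 by DESeq2. With no filter, where the fit uses more genes, Il1b (-2.59, adjusted p = 0.000378, range over alternatives 0.000378 to 0.194) and Il33 (-1.05, adjusted p = 0.0196, range 0.0196 to 0.229) passed for IMQ+VEH against IMQ, and the cause was not tested. With counts in place of FPKM, the log2 difference of IMQ+IDMF to the IMQ+VEH mean was 0.056 for the IL-36 ratio and 1.55 for the ratio of Il33 to Il1rl1. Fits without 1 IMQ+VEH library have no residual degrees of freedom and give values with no test. Leaving out IMQ+VEH replicate 1 or 2 gave -0.059 or 0.94 for the ratio of IL-1 agonists to Il1rn. For IMQ+IDMF against IMQ+VEH it gave -0.39 or 0.87 for Il1a, -0.51 or 0.028 for Il1f9, 0.013 or -0.53 for Il1r1, 0.13 or -0.75 for Nlrp3, -0.36 or 0.12 for Pycard and -0.25 or 0.026 for Myd88. For IMQ+VEH against IMQ it gave 0.65 or -0.60 for Il1a and 0.059 or -0.13 for Il1rn, and Il1rn was 0.034 with total counts and 0.068 by FPKM. Against the 3 other libraries, leaving out 1 library gave -1.02 to 0.88 for Il1b, the highest without IMQ, and -0.096 (without IMQ+VEH replicate 1) to 0.54 for Il1a, and Il1b was 0.050 by FPKM. DESeq2 gave no adjusted p for Cxcl2. The count of members below both IMQ+VEH libraries, in alternatives chosen after seeing the data, was 7 to 9 of 10, and that of members below IMQ in IMQ+VEH was also 7 to 9. No paired analysis was possible because only IMQ+VEH has 2 libraries. By the core's numbering the second IMQ+VEH library stands apart from the 3 others, and whether this marks a batch was not tested. Depth limits Il1b, Il1rl1 and Cxcl2, which had under 100 counts in most libraries.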

Other observations

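Genes that IL-1 or IL-36 is known to induce did not share a direction between IMQ and the lotion libraries. The following were chosen after their values were seen, and none of them passed the threshold in IMQ+VEH against IMQ (edgeR adjusted p of at least 0.0995). Counts in IMQ, IMQ+VEH replicates 1 and 2 and IMQ+IDMF were 40, 3, 11 and 0 for the chemokine Ccl3, 21, 1, 8 and 2 for the chemokine Cxcl3, and 91, 28, 44 and 44 for the prostaglandin synthase Ptgs2, with IMQ highest as for Il1b. The chemokine Ccl20 had 156, 432, 689 and 678 counts, Cxcl1 18, 86, 41 and 85, and the cytokine Il6 1, 13, 5 and 13, with IMQ lowest. The log2 fold change of Ccl20 in IMQ+VEH against IMQ was 1.99.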
